A study of Mus musculus with 2 samples.

Results

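Antisense transcripts are RNAs read from the strand opposite a gene, and in the mouse gut of embryonic day 15.5 (E15.5) 256 such genes on autosomes were detected. They were chosen by level: genes that GENCODE M21 gives the biotype antisense, with at least 1 TPM (a read-based transcript level scaled for length and to 1 fixed sum per library) in both libraries, leaving out Airn and Kcnq1ot1. These 256 were 12.7% of the 2015 autosomal antisense genes in the deposited tables, which hold 43346 Ensembl genes in all. By the same limit 62.7% of 21474 protein-coding genes were detected. The choice used the levels themselves, so levels of the chosen genes are a description. A further 6 antisense genes passed the limit on the X chromosome and were not used.

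Natural antisense transcripts share part of their locus with the gene on the other strand. Some start beside its promoter and run away from it, some meet it at the far end, and some lie within its introns or across its exons. Some act on the neighbouring gene through chromatin, through competition between polymerases or through base pairing, some are hosts of small RNAs, and for many no role is known. In development, antisense RNAs are well known from Hox clusters and from imprinted loci.

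The data are 2 total RNA libraries from intestine of E15.5 embryos of the mouse strain B6NCrl, which form 1 group. Replicate 1 came from a pool of 78 embryos and replicate 2 from a pool of 62 embryos, both of mixed sex. Each library started from 10 ng of RNA of over 200 nucleotides, with spike-in RNAs added. The labels number the pools as biological replicates 1 and 2, and no other tissue, treatment or genotype was analysed here, so the comparison is between each antisense gene and the coding gene opposite it. Pairs of values below are TPM of replicate 1 and replicate 2 in that order.

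The libraries held 34406872 and 40669822 estimated counts. Markers of gut epithelium (8 of 8, among them Cdx1 at 77.6 and 71.1 TPM), of gut muscle and mesenchyme (6 of 6) and of enteric neurons (4 of 4) were detected, and the stomach markers Gkn1, Gkn2 and Sox2 were all under 1 TPM. Markers of pancreas were present and unequal, summing over 4 genes to 5227 TPM in replicate 1 and 1829 TPM in replicate 2. The 3 liver markers summed to 492 and 346 TPM. In bulk tissue, fewer cells of a type and less RNA per cell cannot be told apart. No source used here states whether the authors' counting used the strand of the reads. Where exons of a pair overlap, reads of the antisense gene and of its partner therefore cannot be told apart. Members without exon overlap can lie in introns of the partner, and whether reads of unspliced partner RNA fell on them was not tested. The exon overlap is therefore given by class for all members and beside many of the pairs, as the share of antisense exonic bases on opposite coding exons.

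Sequences of some members, written 5′ to 3′, show what kind of transcript they are. Dnm3os and 2010103J01Rik are hosts of microRNAs, small RNAs that repress messenger RNAs through a seed, bases 2 to 8, given here in capitals. In the first, Mir199a-2 (chr1:162217814-162217923) and Mir214 (chr1:162223368-162223477) lie in full on exons on the plus strand. The second holds Mir215 (chr1:185313581-185313692) in an exon and Mir194-1 (chr1:185313319-185313385) in an intron, also on the plus strand. Sequences are those of RefSeq on GRCm38.p6.
miR-199a-5p in Dnm3os: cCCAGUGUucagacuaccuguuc
miR-199a-3p in Dnm3os: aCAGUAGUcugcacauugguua
miR-214-5p in Dnm3os: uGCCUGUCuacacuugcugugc
miR-214-3p in Dnm3os: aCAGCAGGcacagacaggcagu
miR-194-5p in 2010103J01Rik: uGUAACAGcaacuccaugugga
miR-194-1-3p in 2010103J01Rik: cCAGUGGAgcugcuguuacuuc
miR-215-5p in 2010103J01Rik: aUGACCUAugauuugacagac
miR-215-3p in 2010103J01Rik: uCUGUCAUucuguaggccaau

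No seed was shared among these 8 microRNAs. Against all mature mouse microRNAs in the table, miR-215-5p shares its seed with miR-192-5p, a microRNA abundant in gut epithelium, miR-199a-3p with miR-199b-3p, and miR-214-3p with miR-761. Mature microRNAs are shorter than the 200 nucleotides kept and were not measured. The values below are those of the host transcripts.

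Promoter windows, from 250 bases before to 50 bases after the RefSeq start, were found for 128 members by symbol. CpG dinucleotides, the sites of DNA methylation that cluster at promoters of widely used genes, are in capitals in 3 windows that differ in CpG content. They are the window of Tug1, a noncoding RNA known to be made in many tissues (chr11:3648765-3649064, minus strand), of Dnm3os (chr1:162217373-162217672, plus strand) and of Hnf4aos (chr2:163541672-163541971, minus strand), all on GRCm38.p6.
Tug1: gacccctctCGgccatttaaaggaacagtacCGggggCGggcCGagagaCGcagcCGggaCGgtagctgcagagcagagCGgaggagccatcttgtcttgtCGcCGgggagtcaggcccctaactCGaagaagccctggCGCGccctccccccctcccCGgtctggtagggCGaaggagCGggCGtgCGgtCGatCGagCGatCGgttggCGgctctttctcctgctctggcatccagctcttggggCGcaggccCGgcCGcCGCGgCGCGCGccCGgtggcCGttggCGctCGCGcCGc
Dnm3os: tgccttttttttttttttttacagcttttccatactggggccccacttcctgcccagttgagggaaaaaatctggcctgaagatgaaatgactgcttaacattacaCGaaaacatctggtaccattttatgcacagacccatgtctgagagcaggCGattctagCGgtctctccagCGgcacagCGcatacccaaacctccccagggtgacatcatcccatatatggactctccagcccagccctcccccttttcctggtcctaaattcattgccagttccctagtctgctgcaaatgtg
Hnf4aos: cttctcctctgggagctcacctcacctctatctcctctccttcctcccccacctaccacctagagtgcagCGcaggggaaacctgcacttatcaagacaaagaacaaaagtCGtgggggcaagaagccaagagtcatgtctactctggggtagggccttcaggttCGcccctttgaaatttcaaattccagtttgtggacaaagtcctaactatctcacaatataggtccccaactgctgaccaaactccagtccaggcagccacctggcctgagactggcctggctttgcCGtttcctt

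The Tug1 window held 37 CpG sites against 5 in that of Dnm3os and 4 in that of Hnf4aos. Observed over expected CpG was at least 0.6 in 59.4% of the 128 members' windows, in 68.4% of 187 partners' windows and in 35.8% of all 32851 windows in the table. The letters TATAAA, searched on both strands, were in 4.69% of members' windows, 9.63% of partners' windows and 13.6% of all windows. The letters CCAAT, also on both strands, were in 29.7% of members' windows, 34.2% of partners' windows and 37.4% of all. These matches describe letters in a window and say nothing of factors bound there. At the Tug1 locus the RefSeq window of Morc2a, the gene opposite, lay with all 300 of its bases on Tug1 exons of M21. The RefSeq start of Tug1 lies 859 bases inside its M21 start, so this overlap rests on the M21 model.

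The antisense genes were low for the most part. Their median was 2.55 TPM, from 1.04 to 94.1, and 151 had a mean of at least 2 TPM, 54 of at least 5 TPM, 21 of at least 10 TPM and 4 of at least 50 TPM. Together they took 0.135% of all TPM in each library, and the 4 highest held 22.5% of that. The median member rested on 57 and 65 estimated counts. In 30 and 25 members the count was under 20, in 17 of them in both libraries, and the authors' lower bound of TPM was under 1 in 53 and 61 members. At the median effective length of the members, 3 counts are worth 0.161 and 0.137 TPM, so that a listed level of 1 TPM stood above a few reads but with a wide counting error. Just inside the limit were Arf4os at 1.07 and 1.00, E430024P14Rik at 1.00 and 1.60 and Gm14964 at 1.00 and 1.40 TPM. Just outside were Wt1os at 1.02 and 0.97, Gm11832 at 1.88 and 0.97 and Gm19412 at 0.96 and 1.41 TPM.

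A partner, the overlapping coding gene on the other strand with the most exonic bases shared, was found for 237 members. With equal or no exonic overlap, the longest shared gene body came next. The other 19 overlapped none in M21, the highest being 2810001G20Rik at 15.5 and 18.3 TPM, Gm11423 at 6.76 and 6.18 TPM and Chrna1os at 3.99 and 2.59 TPM. Of the 237, 2 had a chosen partner without a row in the tables (Igf2os and Gm26873), which left 235 pairs with a ratio. With the opposite coding gene of highest TPM chosen instead, all 237 had a ratio. More than 1 coding gene lay opposite in 51 members. Meis1 was the partner of both Gm16140 and Gm16141, and Usp54 of both 1810062O18Rik and 2810402E24Rik, so these pairs share a value.

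In most pairs the antisense gene was the lower one. The ratio was taken as log2 of antisense TPM over partner TPM, each plus 0.1 and averaged over the libraries, and its median was -2.69 over the 235 pairs. It was -2.70 in replicate 1 alone and -2.78 in replicate 2 alone, with quartiles at -4.33 and -0.97. The median partner stood 6.68-fold above its antisense gene, 92 partners over 10-fold and 9 over 100-fold, while 39 pairs lay within 2-fold. Antisense above partner was seen in 33 pairs, 14.0% of the 235 (32 of them in both libraries), and over 2-fold above in 21. Among the 1361 autosomal antisense genes with any TPM and a partner value, the share above the partner was 6.47%. The limit on the antisense level raises this count by its construction, so no test is given.

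Partners had a higher median level than coding genes as a whole. It was 20.7 TPM against 5.07 TPM for all coding genes, and 217 of 235 (92.3%) were detected. Among detected genes alone the median was 24.4 TPM for partners and 17.8 TPM for coding genes. The median over all valued partners differed by exon overlap. It was 11.7 TPM over 36 pairs with none and 24.7 TPM over 152 with under 50%. With 50% or more but not all it was 16.5 TPM, and with full overlap 19.3 TPM. The partners of 1577 antisense genes that did not pass the limit had a median of 6.70 TPM, and 74.6% of them were detected. Across all pairs of members, Spearman's rho between antisense and partner TPM was -0.003 and Pearson's r on log2 values 0.08, over 235 points that share both libraries. By exon overlap, rho was -0.27 over 36 pairs with none, -0.10 over 152 with under 50%, 0.35 over 29 with 50% or more and 0.37 over 18 with full overlap, so the pooled value covers classes of unlike sign. Without a limit on the antisense level, over 1053 pairs, rho was 0.27.

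**Figure D1:**
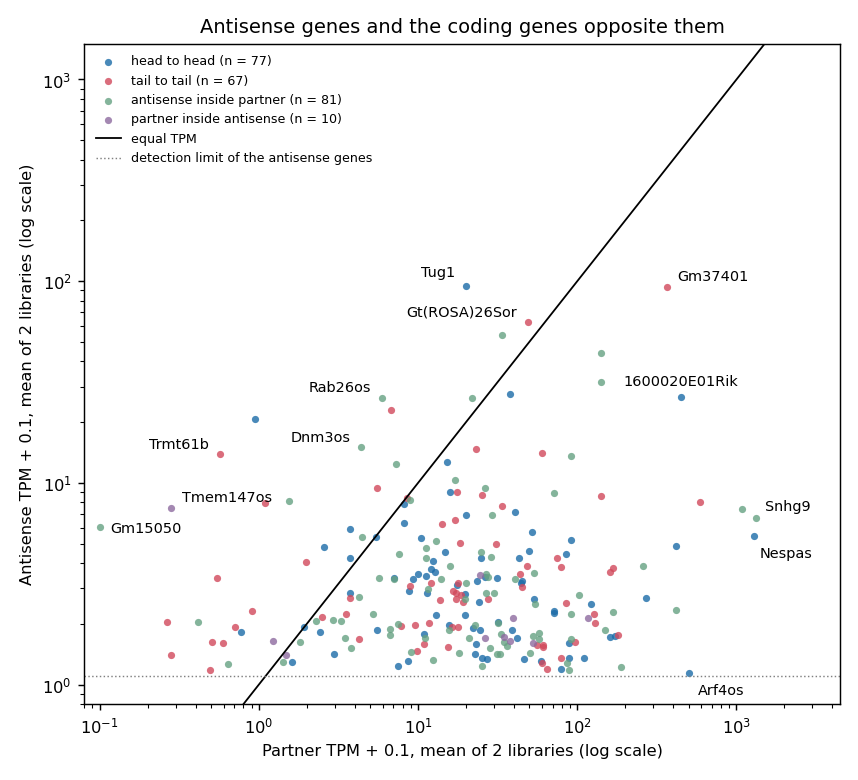
Mean TPM of each antisense gene (vertical) against mean TPM of its partner (horizontal), each plus 0.1 on log axes, for 235 pairs coloured by arrangement. Points above the black line, 33 in number, are antisense genes that exceeded their partner, and most points lie below it. Gm28308, opposite Gm15050, is listed at 0 TPM and stands at the left edge.

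Among the highest members were RNAs known from many tissues. Tug1 (ENSMUSG00000056579.18, chr11:3639785-3649673, minus strand) had 86.9 and 101 TPM, against 19.7 and 20.2 TPM of Morc2a, a chromatin-associated ATPase. On 10592 and 14683 counts, Tug1 was above its partner in both libraries, by 4.73-fold in the mean, and 97.7% of its TPM fell on transcripts with no base on an opposite coding exon. Gt(ROSA)26Sor, the noncoding gene of the locus into which mouse transgenes are placed for broad expression, had 58.9 and 66.9 TPM, against 50.1 and 47.4 TPM of Thumpd3, a protein of transfer RNA methylation. The values of the pair did not overlap between the genes, and the ratio was 1.29-fold.

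The 4 highest members also held Gm37401 (chr9:108337089-108338273, minus strand), at 86.6 and 101 TPM, against 350 and 378 TPM of Rhoa, a GTPase of the actin cytoskeleton. Gm11175 (chr8:70699162-70700080, minus strand) had 51.5 and 56.3 TPM, against 32.37 and 35.04 TPM of Jund, an AP-1 transcription factor. Both lie on exons of the gene opposite, 93.4% of the exonic bases of Gm37401 and 100% of those of Gm11175. The same full overlap held for Gm20463, with 34.1 and 29.1 TPM, against 144 and 138 TPM of Rnf5, a ubiquitin ligase, and for Gm20659, with 25.1 and 27.4 TPM, against 21.3 and 22.2 TPM of the phosphatase gene Dusp3. In the 3 genes of full overlap no exonic base is free of the other strand's exons, and the level cannot be assigned to a strand from these tables.

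Sp3os started 1022 bases from the start of Sp3, a zinc finger transcription factor, with 25.01 and 29.96 TPM, against 34.4 and 40.5 TPM of Sp3, and 12.2% exon overlap. 1600020E01Rik had 28.3 and 24.9 TPM, against 422 and 470 TPM of Pcbp1, an RNA-binding protein. Brip1os had 22.9 and 22.8 TPM, against 7.47 and 5.89 TPM of Med13, a subunit of the Mediator complex, with the antisense gene 3.42-fold the higher. Of the exonic bases of Brip1os 20.2% lay on opposite coding exons, and none of its TPM fell on a transcript free of them. E130307A14Rik had 14.2 and 15.3 TPM, against 24.5 and 21.7 TPM of Traf3ip2, an adaptor of interleukin-17 signalling. Of the 13 partners in the plot of these members, 6 were higher and 7 lower than their antisense gene in the mean.

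**Figure D2:**
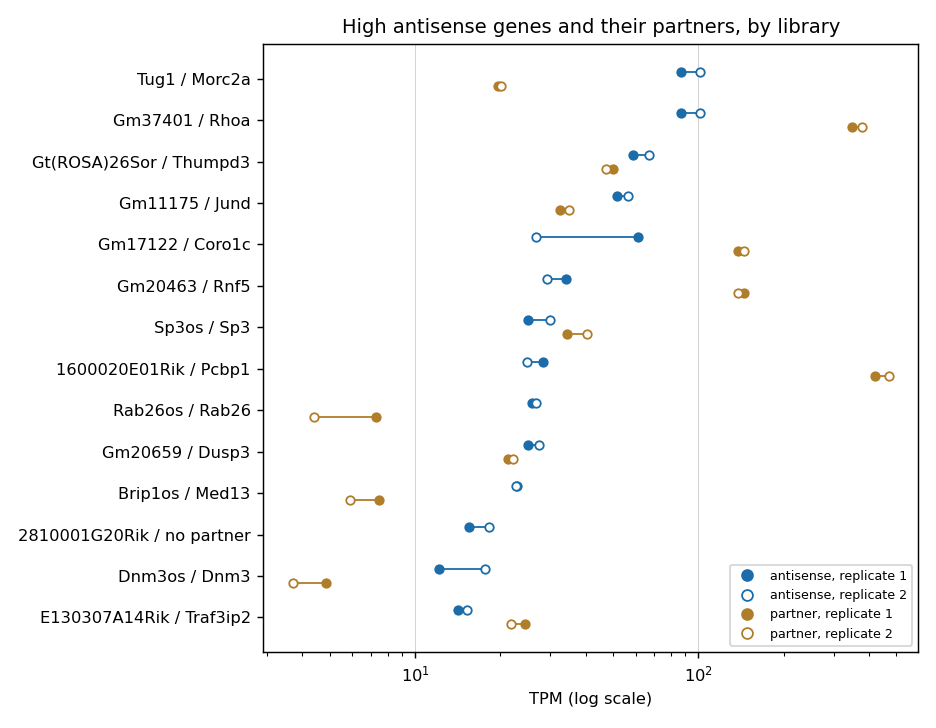
TPM of 14 of the 15 highest antisense genes (blue) and of their partners (brown) on a log axis, filled circles for replicate 1 and open circles for replicate 2. Tug1, Rab26os, Brip1os and Dnm3os lie to the right of their partners in both libraries, while Gm37401, Gm20463 and 1600020E01Rik lie to the left. The open and filled circles of Gm17122 are far apart, at 26.8 and 61.2 TPM.

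The highest ratios of antisense over partner were found where the coding gene was nearly silent. Tmem147os had 7.09 and 7.75 TPM, against 0.28 and 0.08 TPM of Gapdhs, the sperm form of a glycolytic enzyme. The gene that M21 names Trmt61b with the biotype antisense (ENSMUSG00000085492.7, a symbol otherwise that of a transfer RNA methyltransferase) had 12.9 and 14.7 TPM, against 0.54 and 0.40 TPM of Spdya, a cell-cycle activator. Exon overlap was 11.4% in the first and 13.9% in the second, where none of the TPM fell on a transcript free of it. These ratios were 4.75 and 4.61 on the log2 scale, the highest among pairs with a partner above 0. Gm15050, which lies near the Hoxa genes, had 4.79 and 7.04 TPM, and its partner Gm28308 is listed at 0 in both libraries. Of the 2 coding genes opposite Gm15050, neither shares an exonic base with it, so this pairing does not rest on exon overlap. In all, 15 partners were under 1 TPM in both libraries.

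Among partners with a mean of at least 1 TPM, the excess came from several kinds of pair. Nr6a1os had 7.51 and 8.63 TPM, against 1.52 and 1.36 TPM of Nr6a1, an orphan nuclear receptor of early embryos. Rab26os, the host of the small nucleolar RNA gene Snord60, had 25.9 and 26.8 TPM, against 7.28 and 4.38 TPM of Rab26, a GTPase of secretory vesicles. Dnm3os, host of the microRNAs shown above, had 12.2 and 17.7 TPM, against 4.85 and 3.71 TPM of Dnm3, a dynamin. All 3 lie inside their partner with no exonic base on an opposite coding exon, and in each both libraries of the antisense gene were above both of the partner. 6330418K02Rik had 7.74 and 7.94 TPM, against 1.14 and 0.86 TPM of the sulfotransferase gene Gal3st4, with 65.6% of its exonic bases on opposite exons. Gm13716 had 4.30 and 5.16 TPM, against 2.59 and 2.34 TPM of Lrrc55, with 32.9% exon overlap.

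At the other end stood antisense genes opposite some of the most abundant messenger RNAs. Arf4os had 1.07 and 1.00 TPM, against 489 and 521 TPM of Arf4, a GTPase of the Golgi, with a log2 ratio of -8.80, the lowest of all pairs. Nespas, an imprinted antisense RNA of the Gnas locus, had 5.95 and 4.71 TPM, against 1224 and 1355 TPM of Gnas, a G protein subunit. Snhg9, host of the small nucleolar RNA gene Snora78, had 5.47 and 7.68 TPM on only 11 and 18 counts, against 1387 and 1270 TPM of the ribosomal protein gene Rps2. The ratios of Nespas and Snhg9 were -7.89 and -7.64 on the log2 scale, and exon overlap was 31.3% in Arf4os, 31.4% in Nespas and 7.65% in Snhg9. Gm16144 opposite Anxa2, Gm29361 opposite Rbm25, Gm12999 opposite Atpif1, Gm11739 opposite Prpsap1 and Gm10138 opposite Ivns1abp completed this end, with log2 ratios from -7.46 to -6.67. Of these Gm12999 had 7.07 and 7.50 TPM and lay with all its exonic bases on exons of Atpif1, an inhibitor of the mitochondrial ATP synthase, at 1076 and 1103 TPM.

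Regulators of gut patterning were among the partners of 12 members, and 3 of these antisense genes exceeded the partner in the mean, with a median log2 ratio of -1.79. Over all 235 pairs the median was -2.69, and no difference is drawn from lists chosen in view of these data. Hox genes, which set position along the gut, gave 5 pairs with a median log2 ratio of -0.02. Several coding genes lay opposite Hoxaas3 (6), Hoxd3os1 (3), Hoxb3os (2) and Hoxb5os (2), so their ratios depend on the partner chosen. Hoxb3os had 3.39 and 4.54 TPM, against 1.49 and 2.26 TPM of Hoxb3, but 76.2% of its exonic bases lie on opposite exons. Hoxaas3 had 7.78 and 8.77 TPM, against 7.44 and 9.32 TPM of Hoxa7, and the libraries of this pair overlapped. Of its exonic bases 30.7% lie on opposite coding exons, not all of them on Hoxa7.

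For the last Hox pairs the coding gene was higher. Hoxd3os1 had 8.12 and 9.63 TPM, against 15.6 and 16.1 TPM of Hoxd3. Hoxb5os had 3.44 and 3.32 TPM, against 22.6 and 26.2 TPM of Hoxb5, and all of its TPM fell on a transcript free of opposite exons.

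Meis1, a homeobox partner of Hox proteins, was measured at 88.3 and 94.2 TPM. Gm16141, inside Meis1 with no exon overlap, had 13.3 and 13.6 TPM on 220 and 263 counts. Gm16140, in the same gene with 79.9% of its exonic bases on opposite exons, had 2.18 and 2.12 TPM. The higher of the Meis1 antisense genes was thus the one without overlap.

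Hnf4a, a hepatocyte nuclear factor that drives enterocyte and hepatocyte genes, stood far above its antisense neighbour. Hnf4aos had 2.48 and 1.95 TPM on 35 counts in each library, against 71.3 and 71.0 TPM of Hnf4a, with a log2 ratio of -4.94. Hnf4aos shares no exonic base with an opposite coding exon.

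Further regulators differed in their ratios. Tbx3os1 had 2.25 and 4.29 TPM, against 28.6 and 33.7 TPM of the T-box gene Tbx3. Junos had 1.88 and 2.44 TPM, against 69.4 and 74.2 TPM of the AP-1 gene Jun. Gm11266 had 1.82 and 1.22 TPM, against 34.1 and 34.7 TPM of Nfib, a nuclear factor I gene. A830082K12Rik had 2.02 and 1.66 TPM, against 1.55 and 2.11 TPM of the nuclear receptor gene Nr2f1, and here the libraries overlapped.

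Some single pairs are of interest for gut tissue or as microRNA hosts. Gm10680 had 7.37 and 8.46 TPM, against 695 and 482 TPM of Apoa4, an apolipoprotein of chylomicrons, with 90.0% of its exonic bases on opposite exons. Slc6a19os had 4.20 and 2.66 TPM, against 11 and 8.67 TPM of Slc6a19, a brush border carrier of neutral amino acids, with no exon overlap. 2010103J01Rik, host of Mir194-1 and Mir215, had 4.57 and 2.41 TPM on 31.7 and 19.5 counts, against 55.6 and 51.7 TPM of Iars2, a mitochondrial tRNA synthetase.

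Of the members, 44 carry symbols that name them as antisense or as a known noncoding RNA, and 36 of these had a partner value. Of the 36, 7 exceeded the partner, with a median log2 ratio of -1.54. Among those above were Tmem147os, Nr6a1os, Rab26os, Dnm3os, Brip1os and Hoxb3os. The other 29 had log2 ratios from -8.80 to -0.02, and 6 of them are given here as examples. Rab10os had 13.8 and 14.2 TPM, against 57.1 and 63.1 TPM of Rab10, a GTPase of membrane traffic. Uckl1os had 5.97 and 5.27 TPM, against 55.3 and 48.2 TPM of Uckl1, named as a uridine-cytidine kinase. Arhgap27os2 had 4.47 and 3.93 TPM, against 29.9 and 27.5 TPM of Arhgap27, a GTPase-activating protein, with 75.9% of exonic bases on opposite exons. These antisense genes lay well below their partners with little spread between libraries. Zfp335os had 3.20 and 3.31 TPM, against 9.36 and 8.98 TPM of the zinc finger gene Zfp335. Tmem51os1 had 1.61 and 1.39 TPM, against 90.7 and 86.0 TPM of the membrane protein gene Tmem51. Rap1gapos stands opposite a partner that itself varied, with 8.19 and 5.49 TPM, against 38.9 and 18.9 TPM of Rap1gap, a GTPase-activating protein for Rap proteins, both genes being higher in replicate 1.

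The pairs fell into 78 head to head, with starts in the overlap or beside it, 68 tail to tail, 81 with the antisense gene inside the partner and 10 with the partner inside the antisense gene. Head-to-head starts lay a median of 754 bases apart, and 52 of the 78 within 1000 bases. The median log2 ratio was -2.86 in 77 valued head-to-head pairs, -2.48 in 67 tail-to-tail pairs, -2.69 in 81 pairs with the antisense gene inside and -4.08 in the 10 with the partner inside. The antisense gene exceeded its partner in 7, 14, 10 and 2 pairs of these classes in the same order. The classes overlapped widely, with quartiles of -4.25 and -1.47 in head-to-head and -3.96 and -0.56 in tail-to-tail pairs.

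**Figure D3:**
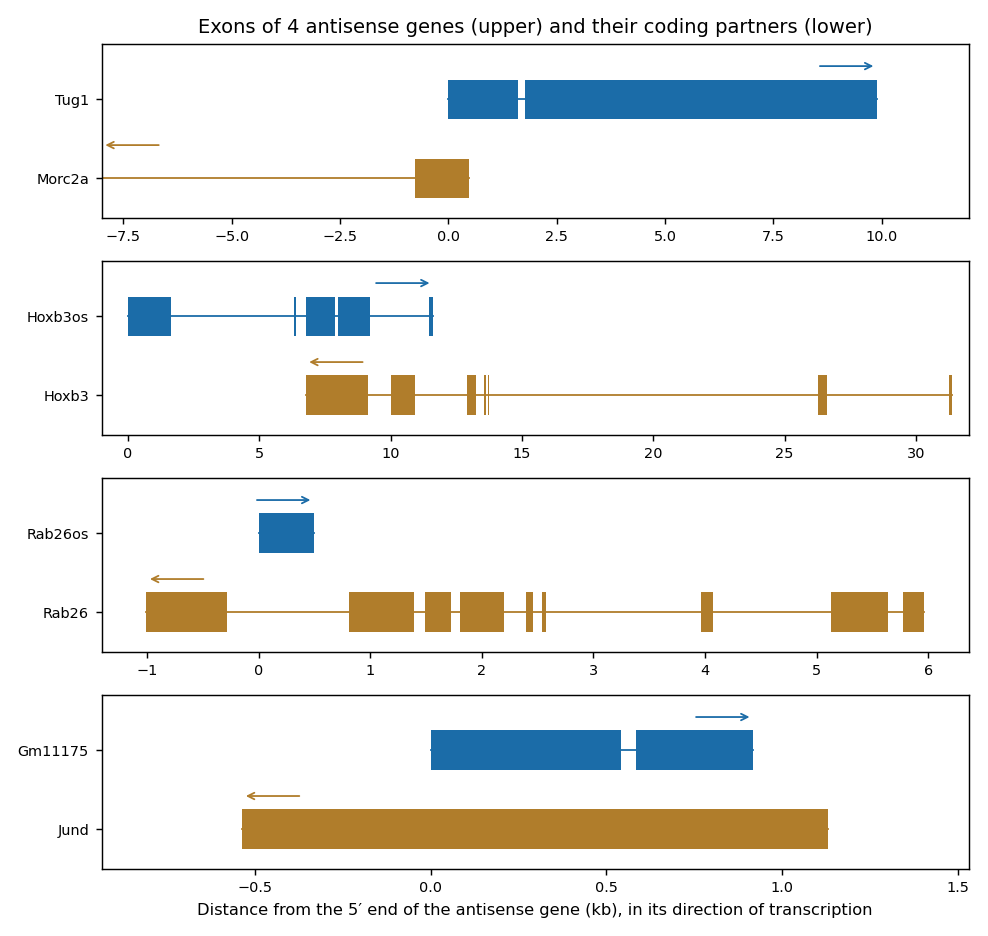
Exons (boxes) of 4 antisense genes (upper, blue) and of their partners (lower, brown) by distance in kb from the antisense start, with arrows in the direction of transcription. By the M21 models, Tug1 faces its partner head to head and Hoxb3os meets Hoxb3 tail to tail. Rab26os sits in an intron of Rab26, and all exonic bases of Gm11175 lie on the Jund exon. Morc2a runs on beyond the left edge.

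By exon overlap, 55 members had no exonic base on an exon of an opposite coding gene, 154 had some but under 50%, 29 had 50% or more but not all, and 18 had all. The median antisense level was 1.94, 2.54, 2.47 and 6.17 TPM over the 36, 152, 29 and 18 valued pairs of these classes. The median log2 ratio was -2.65 with no overlap, -2.97 with under 50%, -2.48 with 50% or more and -1.58 with full overlap. Pairs with no overlap had 8 of 36 antisense genes above the partner and pairs with full overlap 4 of 18, 22.2% in each. Between these ends the share was lower, 16 of 152 (10.5%) with under 50% and 5 of 29 (17.2%) with 50% or more. The shares at both ends rest on few genes.

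**Figure D4:**
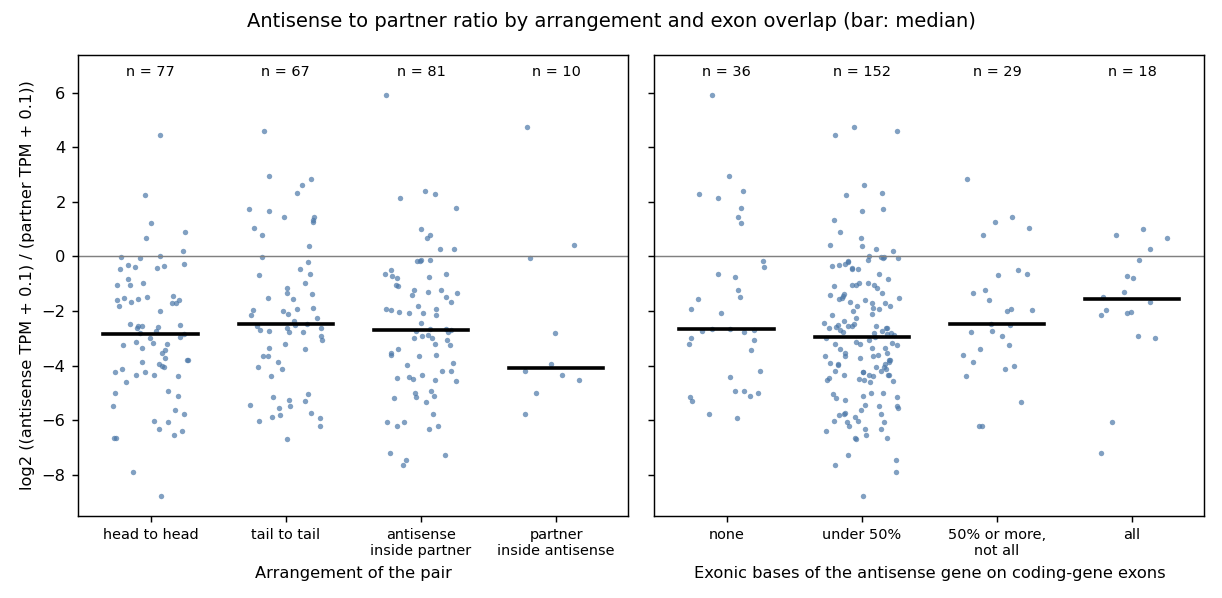
Log2 ratio of antisense over partner TPM, each plus 0.1, for every pair by arrangement (left panel) and by the share of antisense exonic bases on opposite coding exons (right panel), with black bars at the medians. Medians run from -4.08 to -2.48 by arrangement and from -2.97 to -1.58 by overlap, and points of all classes spread over several units.

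How often an antisense gene passed the limit is described by overlap and partner level over 1812 autosomal antisense genes with a partner value. With no exon overlap, 3.12% passed where the partner was under 1 TPM, 4.68% from 1 to 10 TPM, 8% from 10 to 100 TPM and none of 22 at 100 TPM or more. With overlap under 50%, the shares were 3.72%, 9.54%, 24.8% and 43.8%. With 50% or more but not all they were 4.55%, 25%, 16.2% and 27.3%, with no steady order. With full overlap they were 14.3%, 30%, 45.5% and 66.7%, the last being 4 of 6 genes. At any partner level 5.4% passed with no overlap, 16.5% with under 50%, 16.4% with 50% or more and 40% with full overlap, and 13% over all classes. The part of reads from the partner in these shares was not tested, since the tables do not separate strands.

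Most of the members have spliced models in M21, and reads across splice junctions were not examined. In 215 the transcript of highest TPM has several exons and in 41 a single one, and its median length was 830 bases. Several quantified transcripts were listed for 118 members, where the highest took a median of 70.8% of the gene's TPM. At least 50% of the TPM fell on transcripts free of opposite coding exons in 76 members, and all of it on overlapping transcripts in 153. Counting only transcripts free of opposite exons left 77 antisense genes at the limit of 1 TPM and 58 pairs, with a median log2 ratio of -2.67 and 11 antisense genes above the partner.

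The libraries gave like levels for most members. The log2 ratio of replicate 1 over replicate 2, each TPM plus 1, had a median of 0.03 and an SD of 0.33 over the 256 members, and a median of -0.02 and an SD of 0.23 over all 14901 detected genes. Within 1.5-fold lay 240 members. Over 2-fold apart were 5 of the 256, 1.95%, against 0.691% of all detected genes. The count of members was 9 with counts scaled by TMM factors or by DESeq2 size factors, and 10 with 0.1 TPM added in place of 1. The share over all detected genes was not computed at these settings, so nothing is drawn from these counts. In the band from 1.20 to 15.4 TPM, 4 of 230 members and 24 of 6153 coding genes were over 2-fold apart, with an SD of 0.33 for the members and 0.22 for the coding genes. Members and partners had library ratios of the same sign in 123 of 235 pairs.

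The 5 differing members had short top transcripts of 347 to 751 bases, with several exons in M21. Gm17122 had 61.2 TPM in replicate 1 and 26.8 TPM in replicate 2 on 401 and 204 counts, against 138 and 145 TPM of Coro1c, an actin-binding coronin. Gm15491 had 4.59 and 1.05 TPM, against 16.3 and 16.7 TPM of Mgea5, the enzyme that removes O-linked N-acetylglucosamine. Gm17134 had 5.64 and 1.93 TPM, against 261 and 257 TPM of the splicing regulator Ptbp1. In none of these 3 did the partner differ between libraries as the antisense gene did.

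Higher in replicate 2 were Gm28221, with 1.47 and 6.05 TPM, against 13.9 and 17.8 TPM of Ncald, and Gm15867, with 1.30 and 4.19 TPM, against 10.6 and 11.9 TPM of Sertad4. Their counts were 8.74 and 41.9 for Gm28221 and 9.00 and 33.8 for Gm15867. The authors' TPM bounds in the libraries overlapped for Gm17134 and Gm28221 and, by a little, for Gm15491, and did not for Gm17122 and Gm15867. Of the 5, 3 had all exonic bases on opposite coding exons, Gm15491 had 84.6% and Gm15867 35.6%. For Gm15491 this share covers 2 opposite coding genes, with 551 of its 751 exonic bases on Mgea5.

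Spread between libraries was unequal across overlap classes. The SD of the library ratio was 0.30 for the 55 members with no overlap, 0.26 for the 154 with under 50%, 0.39 for the 29 with 50% or more and 0.65 for the 18 with full overlap. It was 0.57 for the 38 members with under 20 counts in either library, where 4 of the 5 differing members fall, and 0.27 for the other 218. The pancreas markers were higher in replicate 1, 4 of 4, and their part in these differences was not tested.

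**Figure D5:**
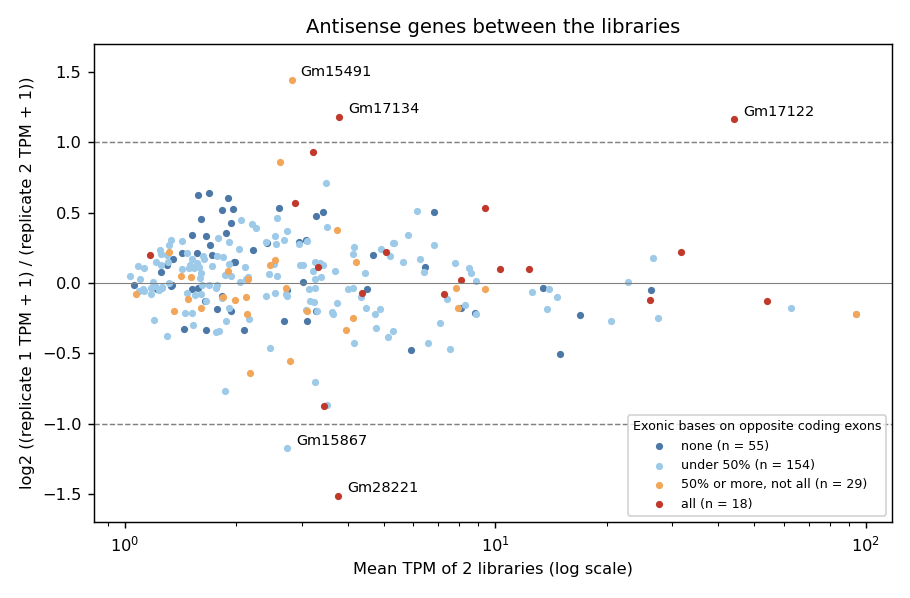
Log2 ratio of replicate 1 over replicate 2 TPM, each plus 1, against mean TPM on a log axis for the 256 antisense genes, coloured by the share of exonic bases on opposite coding exons. Dashed lines mark a 2-fold difference. The named genes outside them are Gm15491, Gm17134 and Gm17122, higher in replicate 1, and Gm15867 and Gm28221, higher in replicate 2, and 3 of these have full overlap.

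Sequence shared with other genes bears on few members. Of the 31-base words of each member's transcripts, none of the 256 had over 50% in a transcript of another gene in the same orientation, and 12 had over 10%. The highest were Gm20632 at 43.9%, Gm28306 at 26.5%, 2010103J01Rik at 22.9%, Gm16008 at 21.4% and Gm12953 at 21.1%. Words of other genes on the same strand at the same locus are counted too. There Gm28306 shares 162 exonic bases and 2010103J01Rik 112, so these shares are not those of copies elsewhere alone. The levels of members with many shared words are uncertain, since reads of shared words are split by the authors' estimate. In opposite orientation the median member had 16.8% of its words in transcripts of any gene, its own included, and 45 had over 50%.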

How the data were processed

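Total RNA of 2 E15.5 intestine libraries (1 group) was analysed from the deposited gene and transcript tables. Per the file headers, the authors gave expected counts (estimated, not whole where reads are shared), TPM and FPKM made from them, TPM interval bounds, used here as a score of unstated level, and the percent of a gene's output on each transcript. The deposited readme names mm10 and GENCODE M4, and lists per library 1 signal track of unique reads and 1 of all reads, none per strand. Not given in the sources used here were the aligner, the quantifier and the strand setting.

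Genes were matched to GENCODE M21 on GRCm38 by Ensembl identifier without version. The partner was the opposite-strand coding gene with the most exonic overlap, among those sharing at least 1 base of gene body. Ties were settled by the longest shared gene body, then by Ensembl identifier. Ratios of antisense over partner used a pseudocount of 0.1 TPM, and ratios between libraries 1 TPM, scales that understate changes of low genes. With 1 group no differential test was made, and the spread is that of 2 pools. The overlap, arrangement and ratio steps were tested on made-up cases with known answers, the ratios with known folds on real partner levels. The ratio check used a negligible pseudocount, so it returns the known folds by construction. It does not cover the pseudocounts of 0.1 and 1 TPM. Detection and the choice of partner were not tested in this way. Python 3.11.15, pandas 2.3.3, numpy 2.4.6, scipy 1.17.1 and matplotlib 3.10.9 were used. The edgeR 4.0.16 and DESeq2 1.42.0 packages in R 4.3.3 gave scaling factors only, as alternatives, on counts rounded to whole numbers. Members, lists and tests were chosen with earlier results of these data known. Named are the 15 highest members, the 8 pairs of highest and the 8 of lowest ratio among partners with a mean of at least 1 TPM, members named as antisense, members over 2-fold apart between libraries with at least 50 counts in either, the 3 genes on each side of the limit and partners that are Hox genes or gut regulators. Others were chosen after their values were seen, namely members without a partner, the differing members of fewer counts, partners under 1 TPM, hosts of small RNAs, Gm10680, Gm15050 and members sharing words with other genes. A few pairs within these choices are not reported here.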

Additional observations from a re-analysis of the deposited data

How the results depend on the processing

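Of 105 values recomputed under alternatives, 51 kept within the spread or within 1.5 times of the reported one, 54 moved, and the median log2 ratio was below 0 in all 16 of its alternatives, from -4.51 to -0.68. Limits of 0.5, 2 and 5 TPM, which change the set by construction, gave 405, 133 and 46 antisense genes, 373, 126 and 44 with a partner, 307, 112 and 38 pairs with overlapping exons, median ratios of -3.17, -2.06 and -0.68, rho of 0.078, -0.046 and 0.114 and 91.3%, 95.2% and 90.9% of partners detected. At 2 and 5 TPM, 21 and 15 antisense genes exceeded their partner and 1 and 1 were over 2-fold apart between libraries. Without a limit there were 1138 genes, 1057 with a partner, 735 with overlapping exons, 74 above the partner, a median of -4.51, rho of 0.27 and 88.6% of partners detected. FPKM gave a median of -2.36, rho of 0.050 and 3 genes over 2-fold apart. A pseudocount of 1 gave a median of -2.32. The highest partner in place of the longest overlap gave a median of -2.91, rho of -0.030 and 93.7% detected. Posterior mean TPM gave 93.7% detected, and TPM rescaled over Ensembl genes a rho of 0.015. Pairs without exon overlap numbered 36, with 8 above, rho of -0.27 and 86.1% detected. Transcripts free of opposite exons gave 77 genes, 58 with a partner, 11 above, rho of -0.18, 89.7% detected and 0 over 2-fold apart. Over 2-fold apart were also 3 genes with at least 10 counts, 9 by TMM factors, 9 by DESeq2 size factors and 10 with a pseudocount of 0.1. The share over all detected genes was computed only at the reported setting. Leaving out each replicate gave rho from 0.040 to 0.056 and 92.7% to 93.3% detected. The cause of these shifts was not tested. No paired analysis was possible because the samples form 1 group. With 2 libraries no member's spread can be tested. Members near 1 TPM rest on few counts, and intervals cover counting error only. The strand setting limits every level with exon overlap. For members in introns of the partner, the part of unspliced partner reads was not tested. M21 boundaries differ from the M4 models counted, and 477 of 507 member transcripts have the same length in both.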
